A study of Mus musculus with 12 samples.

Results

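Regulators of G protein signalling (RGS) are proteins that bind the active, GTP-loaded alpha subunit of a heterotrimeric G protein and speed up its hydrolysis of GTP, which shortens the signal of the receptor upstream. In astrocytes, G protein-coupled receptors of the Gq class raise cytosolic calcium through phospholipase C beta and release from the endoplasmic reticulum, and RGS proteins limit such signals. The genes described are Rgs1, Rgs2, Rgs3, Rgs4, Rgs5 and Rgs16 of the R4 subfamily, which are small proteins with little beside the RGS domain (Rgs3 also has long forms), Rgs20 of the RZ subfamily, Rgs7 of the R7 subfamily, and Rgs10 and Rgs12 of the R12 subfamily. They were picked by gene symbol from the deposited count table, 10 of the 22 genes with an RGS symbol among 43322 genes in all, and all 10 passed the filter on low counts that left 17077 genes tested. The choice was made with results of these same comparisons known, so the differences below describe the genes and are not independent evidence about them.

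The study asked which calcium signalling components change when the calcium pump of the endoplasmic reticulum (SERCA) is blocked or when external calcium is taken away. Poly-A RNA was sequenced from primary cultures of frontal cortex of wild-type CD1 mice at postnatal days 3 to 5, labelled as cultured astrocytes and titled glial cells. All cultures were grown with serum, B27 and 10 ng/ml epidermal growth factor, were split at day 7 in vitro and were used 3 to 7 days after that. Per the labels a preparation used the cortices of 1 mouse. There were 3 groups of 4 libraries: cells given 3 µM thapsigargin, an inhibitor of SERCA, for 60 min; cells exposed for 60 min to calcium-free medium that held the chelator EGTA; and vehicle control cells. The series text calls the 4 samples of a group biological replicates.

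Library totals were 42.1 ± 0.418 M counts with thapsigargin, 39.3 ± 2.51 M in calcium-free medium and 40.3 ± 2.13 M in vehicle controls (SD, n = 4 each). The summed level of 11 astrocyte markers was 7494 to 9178 CPM (counts scaled to 1 M per library) with thapsigargin, 8584 to 10267 CPM in calcium-free medium and 8373 to 10149 CPM in controls, and 12 microglia markers summed to 136 to 192, 158 to 225 and 162 to 254 CPM in the same order of groups. In that order, 8 oligodendrocyte lineage markers summed to 1617 to 1966, 1768 to 2063 and 1761 to 1886 CPM. The sums of 10 neuron markers were 162 to 191, 207 to 231 and 196 to 225 CPM. The libraries numbered 4 differed from the rest in every group. Their level of Xist, which is transcribed from the inactive X chromosome of females, was 587 CPM or more, while the highest of the remaining 9 libraries had 0.319 CPM. Their proliferation markers added up to between 1895 and 2010 CPM, against 1484 to 1671 CPM in the rest, and their microglia markers to between 136 and 162 CPM, against 184 to 254 CPM. Their oligodendrocyte lineage markers added up to between 1886 and 2063 CPM, against 1617 to 1811 CPM. Among the RGS genes, replicate 4 was 1.40 to 1.45 times the mean of replicates 1 to 3 for Rgs3 in every group, 0.733 to 0.784 times for Rgs16, 0.633 to 0.813 times for Rgs4, 0.522 to 0.711 times for Rgs5 and 0.704 to 0.869 times for Rgs20. For the RGS genes, results that this touches are given with and without these libraries, as ratios within a replicate number, or fitted with that number as a block. Beside a count of calls given for another gene list, the count with the block is given where it differs by over 1.5 times.

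Rgs1, Rgs16 and Rgs2 rose with thapsigargin, by 8.60, 3.50 and 1.67 times, and Rgs3 and Rgs7 rose by less. In calcium-free medium Rgs1 and Rgs16 rose as well, each to a lower level than with thapsigargin, and Rgs2 was not called. With thapsigargin, 5 of the 10 genes were called higher than in vehicle controls at an adjusted p under 0.05 (edgeR quasi-likelihood test), where 16.4% of all tested genes were called higher, and 0 were called lower, where 14.8% of all genes were. No gene of the 10 was lower at an unadjusted p under 0.05 either (0 genes), and DESeq2 also called 0 lower. In calcium-free medium 2 of the 10 were called higher, against 3.78% of all genes, and 0 lower, against 1.55%, with 1 lower at an unadjusted p under 0.05 and 0 by DESeq2. Fitted with the replicate number as a block, 6 of the 10 were called higher with thapsigargin and 1 lower, where 23.0% and 28.2% of all genes were, and in calcium-free medium 4 higher and 1 lower, where 10.4% and 7.01% were. With replicate 4 of all groups left out, 6 were called higher with thapsigargin and 1 lower, where 24.4% and 21.2% of all genes were, and in calcium-free medium 4 higher and 1 lower, where 10.5% and 5.16% were. All libraries of the treated group lay above all controls for 4 of the 10 genes with thapsigargin, against 16.7% of all genes, and below them for 0, against 15.1%. In calcium-free medium they lay above for 3, against 6.05%, and below for 1, against 4.44%. The median log2 fold change of the 10 genes was 0.12 with thapsigargin and 0.03 in calcium-free medium, and that of all tested genes was -0.05 and -0.01.

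**Figure D1:**
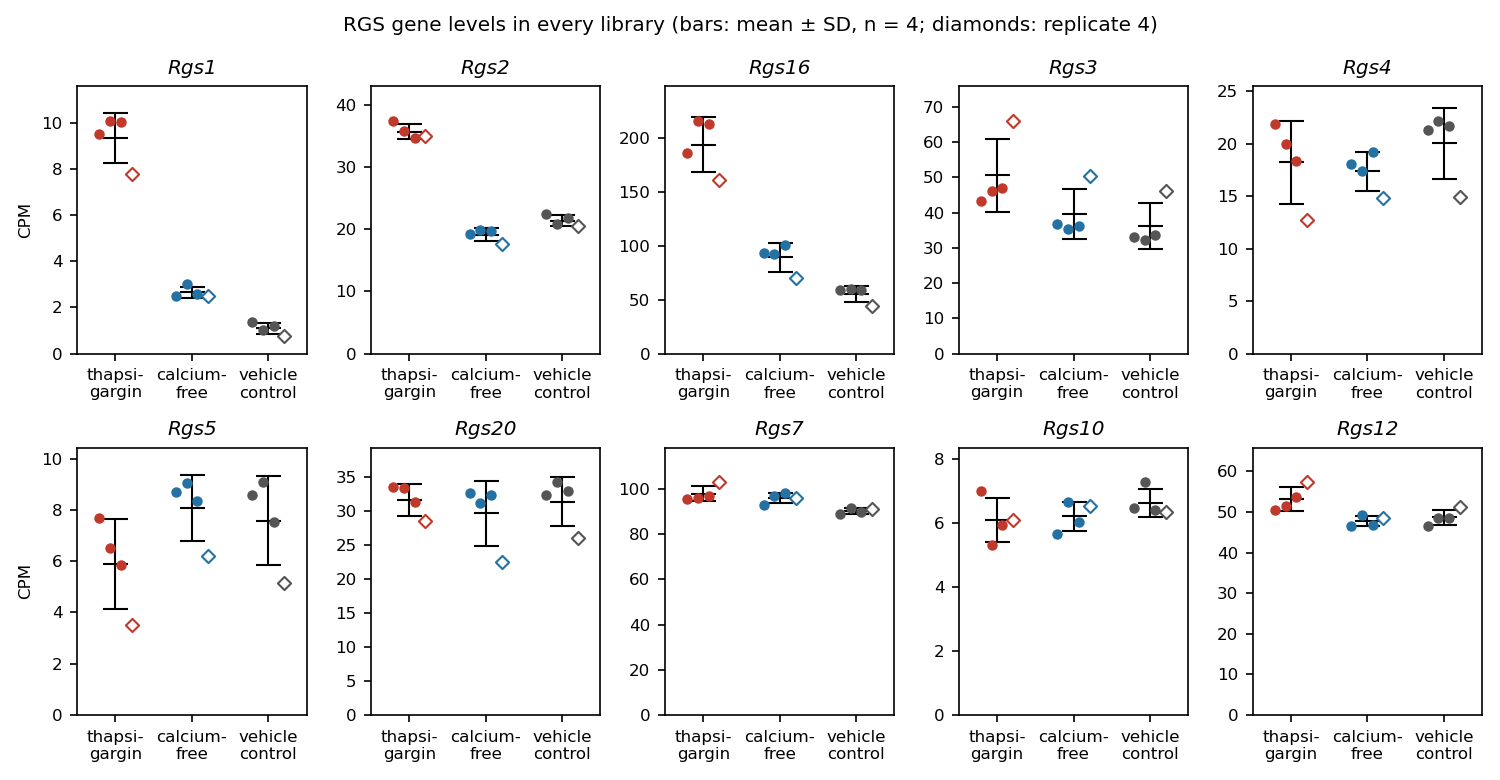
Level of each of the 10 RGS genes in CPM (vertical axis, from 0) in every library, with thapsigargin left, calcium-free medium in the middle and vehicle control right. Circles are replicates 1 to 3, diamonds replicate 4 and bars the mean ± SD (n = 4), and the thapsigargin libraries of Rgs1, Rgs2 and Rgs16 all lie above the libraries of both other groups.

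Rgs1, an R4 gene best known from lymphocytes and microglia, acts on Gi and Gq alpha subunits. It was measured at 9.55, 10.1, 10.1 and 7.78 CPM in the 4 thapsigargin libraries, at 2.50, 3.02, 2.59 and 2.50 CPM in calcium-free medium, and at 1.36, 1.04, 1.20 and 0.763 CPM in vehicle controls. The 3 groups did not overlap, and the control values rest on 32 to 55 counts a library, against 341 to 443 with thapsigargin. The log2 fold change was 3.10 ± 0.16 with thapsigargin (SE, edgeR adjusted p = 2.19e-07), an 8.60-fold difference with a 95% confidence interval from 6.77 to 10.9. It was the second largest increase of the 17077 genes on that scale (rank 2). In calcium-free medium it was 1.28 ± 0.16 (edgeR adjusted p = 0.000976, rank 11), a 2.44-fold difference with an interval from 1.91 to 3.11.

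Of 12 microglia markers, 0 were called higher with thapsigargin, also at an unadjusted p under 0.05, where 16.4% of all genes were called higher. Called lower were 2, P2ry12 and Tyrobp, where 14.8% of all genes were. In the fit with the block, 11 were called lower with thapsigargin and 5 in calcium-free medium, where 28.2% and 7.01% of all genes were. In bulk RNA, fewer cells of a type and less RNA per cell cannot be told apart. The part of microglia in the level of Rgs1 was not tested.

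Rgs16, which acts on Gi and Gq alpha subunits, was at 186, 216, 213 and 161 CPM with thapsigargin, at 93.3, 92.8, 100.8 and 70.1 CPM in calcium-free medium, and at 58.6, 59.8, 59.1 and 44.3 CPM in vehicle controls. The groups did not overlap, although replicate 4 was the lowest library of each. The log2 fold change was 1.81 ± 0.13 with thapsigargin (edgeR adjusted p = 1.88e-06), a 3.50-fold difference with an interval from 2.86 to 4.29, and 0.69 ± 0.13 in calcium-free medium (edgeR adjusted p = 0.0113), a 1.61-fold difference with an interval from 1.32 to 1.96. Within a replicate number the ratio to control was 3.18 to 3.63 with thapsigargin and 1.55 to 1.70 in calcium-free medium, so the lower level of replicate 4 was shared by the 3 groups.

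Rgs2, an inhibitor of Gq signalling with preference for that class of alpha subunit, was at 37.5, 35.8, 34.7 and 35.0 CPM with thapsigargin, at 19.2, 19.9, 19.7 and 17.6 CPM in calcium-free medium, and at 22.4, 20.9, 21.8 and 20.5 CPM in vehicle controls. The thapsigargin libraries were all above the controls and the calcium-free libraries were all below them. The log2 fold change with thapsigargin was 0.74 ± 0.05 (edgeR adjusted p = 9.75e-07), a 1.67-fold difference with an interval from 1.55 to 1.80. In calcium-free medium it was -0.16 ± 0.05 and was not called (edgeR adjusted p = 0.0941). With the replicate block that difference was called (edgeR adjusted p = 0.0175), and the ratio to control was 0.856 to 0.955 in the 4 replicate numbers. Without replicate 4 of all groups it was -0.14 and not called (edgeR adjusted p = 0.0536), and only 1 of 20 alternatives called it.

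The stretch just before the start of transcription is shown for Rgs2 and Rgs16, which rose with thapsigargin, and for Rgs4, an R4 gene that was not called. Sequences and positions are those of RefSeq on GRCm38.p6, 250 bases before the annotated start, written 5′ to 3′ on the gene's strand, with TGACG and its reverse complement CGTCA in capitals. TGACG is the shorter form of the cyclic AMP response element, the site of the calcium- and cyclic AMP-regulated factor CREB.
Rgs2, chr1:144004150-144004399, minus strand: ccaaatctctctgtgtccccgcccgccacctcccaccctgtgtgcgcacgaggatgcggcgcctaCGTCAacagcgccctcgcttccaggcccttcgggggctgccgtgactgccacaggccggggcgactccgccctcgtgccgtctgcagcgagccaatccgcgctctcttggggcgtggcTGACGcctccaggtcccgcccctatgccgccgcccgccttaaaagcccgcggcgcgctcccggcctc
Rgs16, chr1:153740103-153740352, plus strand: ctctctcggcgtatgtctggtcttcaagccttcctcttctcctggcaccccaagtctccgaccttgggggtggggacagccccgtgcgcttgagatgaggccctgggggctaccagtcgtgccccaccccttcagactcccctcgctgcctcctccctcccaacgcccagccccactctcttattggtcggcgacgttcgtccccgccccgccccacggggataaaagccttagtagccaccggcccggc
Rgs4, chr1:169747643-169747892, minus strand: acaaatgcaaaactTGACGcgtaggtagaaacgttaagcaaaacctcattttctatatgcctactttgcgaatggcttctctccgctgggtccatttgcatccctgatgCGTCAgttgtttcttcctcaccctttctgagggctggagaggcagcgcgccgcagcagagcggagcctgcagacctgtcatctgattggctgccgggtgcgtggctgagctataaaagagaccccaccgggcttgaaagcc
The Rgs2 window held CGTCA at -185 to -181 and TGACG at -67 to -63 relative to the start. The Rgs4 window held TGACG at -236 to -232 and CGTCA at -141 to -137. Among the windows not printed, the second of Rgs12 held TGACG at -82 to -78 and the AP-1 site TGACTCA at -22 to -16, and GGAAA or its reverse complement was found in the second window of Rgs3 and in that of Rgs5. Both strands of 32851 such windows of the mouse were searched, and 17.8% held TGACG. The full element TGACGTCA, which contains TGACG, was in 1.55% of windows, the AP-1 site TGANTCA in 6.75%, the NFAT core GGAAA in 55.6% and the CArG box of serum response factor in 1.47%. The Rgs16 window held none of these motifs. The Rgs2 and Rgs16 windows had a GC content of 72.4% and 66.4%, that of Rgs4 53.6%, and the median of all windows was 52.4%. Among the windows not printed, the GC content was 76.4% for Rgs10, 72.4% for Rgs7 and 53.6% for Rgs5. It was 68.4% and 55.6% for Rgs12, and 48.4% and 56.8% for Rgs3. Rgs10, with the highest value, was not called in any comparison. A relation of GC content to the calls was not tested. RefSeq windows were matched for 8 of the 10 genes, all but Rgs1 and Rgs20. A match of letters is a description and does not show that a factor binds there.

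Rgs3, an R4 gene with several isoforms that acts on Gi and Gq alpha subunits, was at 43.2, 46.2, 46.9 and 66.0 CPM with thapsigargin, at 36.8, 35.2, 36.3 and 50.4 CPM in calcium-free medium, and at 33.0, 32.3, 33.7 and 46.1 CPM in vehicle controls. Replicate 4 was the highest library of each group, and the groups overlapped because of it. The log2 fold change with thapsigargin was 0.48 ± 0.16 (edgeR adjusted p = 0.0410). It was called in 4 of 12 fits that left out 1 library and lost in the other 8, which left out thapsigargin replicate 2, 3 or 4, calcium-free replicate 1 or 3, or control replicate 1, 2 or 3 (log2 fold change 0.32 to 0.52, edgeR adjusted p = 0.0508 to 0.111). Within a replicate number the thapsigargin level was 1.31 to 1.43 times the control level in 4 of 4, and the calcium-free level 1.07 to 1.11 times. With the replicate block the thapsigargin difference had an edgeR adjusted p of 8.35e-09, and the calcium-free difference of 0.13 ± 0.04, not called without the block (edgeR adjusted p = 0.824), had 0.0199.

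Rgs4, a brain-enriched inhibitor of Gi and Gq signalling, was at 21.9, 20.0, 18.4 and 12.7 CPM with thapsigargin, 18.0, 17.4, 19.2 and 14.8 CPM in calcium-free medium, and 21.3, 22.2, 21.7 and 14.9 CPM in vehicle controls. The groups overlapped. The log2 fold change was -0.13 ± 0.16 with thapsigargin and -0.21 ± 0.16 in calcium-free medium, neither called. With replicate 4 of all groups left out, the calcium-free difference was -0.25 and was called (edgeR adjusted p = 0.0118). With the replicate block it was -0.20 and not called (edgeR adjusted p = 0.0584), and only 1 of 20 alternatives called it.

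Rgs5, in brain best known as a marker of pericytes, was at 7.69, 6.52, 5.86 and 3.49 CPM with thapsigargin, 8.71, 9.03, 8.36 and 6.19 CPM in calcium-free medium, and 8.59, 9.07, 7.51 and 5.15 CPM in vehicle controls. With thapsigargin the log2 fold change was -0.36 ± 0.23 and was not called (edgeR adjusted p = 0.271), and the groups overlapped. The thapsigargin level was below the control level in each replicate number, at 0.678 to 0.895 times, and the block gave -0.37 ± 0.08 (edgeR adjusted p = 0.00110). Without replicate 4 of all groups it was -0.29 and called (edgeR adjusted p = 0.0217). In calcium-free medium it was 0.09 ± 0.23, not called. Of 12 markers of pericytes, vessels and fibroblasts, 9 were tested. With thapsigargin 0 of these 9 were called higher and 1 lower, Acta2, where 16.4% and 14.8% of all genes were. The pericyte channel genes Kcnj8 and Abcc9 averaged 0.109 and 0.0747 CPM with thapsigargin and 0.0564 and 0.0877 CPM in controls, and the endothelial gene Cldn5 0.00570 and 0.00596 CPM. These values lie near 0. The list also holds Pdgfrb, Cspg4 and Anpep, whose levels are not given here, so the values do not show that pericytes were absent. The whole list summed to 1866 to 2323 CPM with thapsigargin, 2344 to 2816 CPM in calcium-free medium and 2096 to 2700 CPM in controls, most of it from Acta2 and Col1a1. Its part in the level of Rgs5 was not tested.

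Rgs7, an R7 protein that works as an obligate dimer with the G protein beta subunit Gnb5, had a coefficient of variation of 1.39% to 3.46% within groups. It was at 95.7, 96.1, 96.7 and 102.9 CPM with thapsigargin, 92.8, 97.0, 98.0 and 96.0 CPM in calcium-free medium, and 88.8, 91.6, 89.9 and 91.0 CPM in vehicle controls. Both treated groups lay above the controls without overlap, and overlapped each other. The log2 fold change was 0.12 ± 0.03 with thapsigargin (edgeR adjusted p = 0.0202), a call lost without thapsigargin replicate 4 (edgeR adjusted p = 0.0563) or control replicate 1 (0.0608). In calcium-free medium it was 0.09 ± 0.03, not called (edgeR adjusted p = 0.188), and called with the block (edgeR adjusted p = 0.0488).

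Rgs20, an RZ protein selective for the Gz alpha subunit, averaged 31.6 ± 2.34 CPM with thapsigargin, 29.6 ± 4.78 CPM in calcium-free medium and 31.4 ± 3.62 CPM in vehicle controls (SD, n = 4 each). Rgs10, a small R12 protein abundant in microglia, averaged 6.10 ± 0.698, 6.22 ± 0.460 and 6.63 ± 0.436 CPM in the same order. Neither was called in any of the 3 comparisons, and their groups overlapped in each. Their fold differences from control had 95% intervals of 0.846 to 1.20 (Rgs20) and 0.799 to 1.06 (Rgs10) with thapsigargin, and of 0.791 to 1.13 (Rgs20) and 0.815 to 1.08 (Rgs10) in calcium-free medium.

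Rgs12, a large multidomain R12 protein, averaged 53.2 ± 3.04 CPM with thapsigargin, 47.7 ± 1.28 CPM in calcium-free medium and 48.7 ± 1.87 CPM in vehicle controls (SD, n = 4 each). Its log2 fold change with thapsigargin was 0.13 ± 0.05 and just missed the threshold (edgeR adjusted p = 0.0549). It was 1.06 to 1.12 times the control in the 4 replicate numbers, and was called with the block (edgeR adjusted p = 0.00488) and by DESeq2 (adjusted p = 0.0102). In calcium-free medium it was -0.03 ± 0.05, not called.

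**Figure D2:**
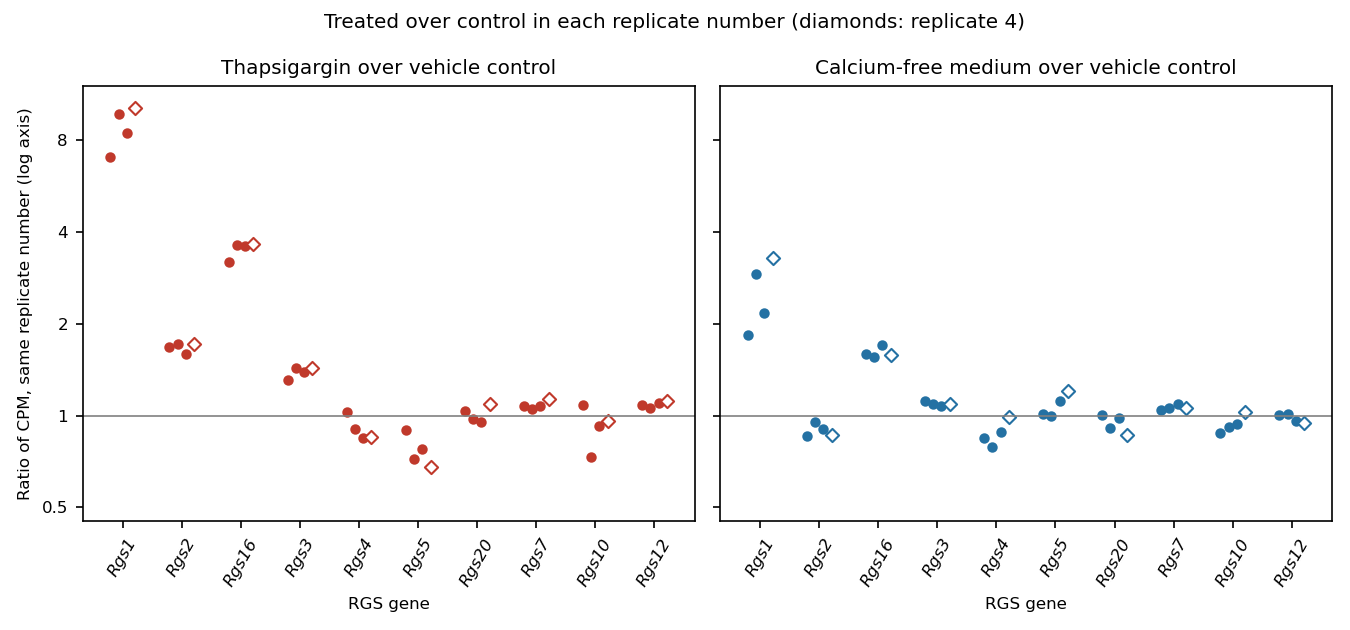
Ratio of CPM to the vehicle control of the same replicate number (vertical log axis) for each RGS gene, with thapsigargin in the left panel and calcium-free medium in the right one. Circles are replicates 1 to 3 and diamonds replicate 4. Rgs3 lies between 1.31 and 1.43 in all 4 numbers with thapsigargin, although its CPM values overlapped between groups, and Rgs2 lies above 1 in all 4 numbers with thapsigargin and below 1 in all 4 in calcium-free medium.

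Thapsigargin and calcium-free medium were compared directly, which tests the difference between their effects. Rgs1, Rgs16, Rgs2 and Rgs12 were called higher with thapsigargin, 4 of the 10 genes, where 14.6% of all tested genes were called higher, and 0 were called lower, where 13.2% were (0 at an unadjusted p under 0.05 and 0 by DESeq2). The log2 difference was 1.82 ± 0.15 for Rgs1 (edgeR adjusted p = 7.41e-06), 1.12 ± 0.13 for Rgs16 (9.20e-05) and 0.90 ± 0.05 for Rgs2 (1.59e-06). In fold these were 3.53, 2.17 and 1.87, and all libraries of the groups were apart for each. Rgs12 differed by 0.16 ± 0.05 (edgeR adjusted p = 0.0248), a call lost without thapsigargin replicate 3 or 4 or calcium-free replicate 1 or 3 (edgeR adjusted p = 0.0566 to 0.0701). Rgs3 differed by 0.35 ± 0.16 and Rgs5 by -0.45 ± 0.23, neither called (edgeR adjusted p = 0.134 and 0.172), and both were called with the block (4.90e-07 and 0.000142). With the block, 5 of the 10 genes were called higher with thapsigargin than in calcium-free medium and 1 lower, where 22.4% and 26.9% of all genes were, and without replicate 4 of all groups 6 higher and 1 lower, where 21.7% and 19.4% were. Every thapsigargin library lay above every calcium-free library for 4 of the 10, against 14.9% of all genes, and below for 0, against 13.4%. The comparisons with vehicle control share the same 4 control libraries, so their values for a gene are not independent of each other.

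**Figure D3:**
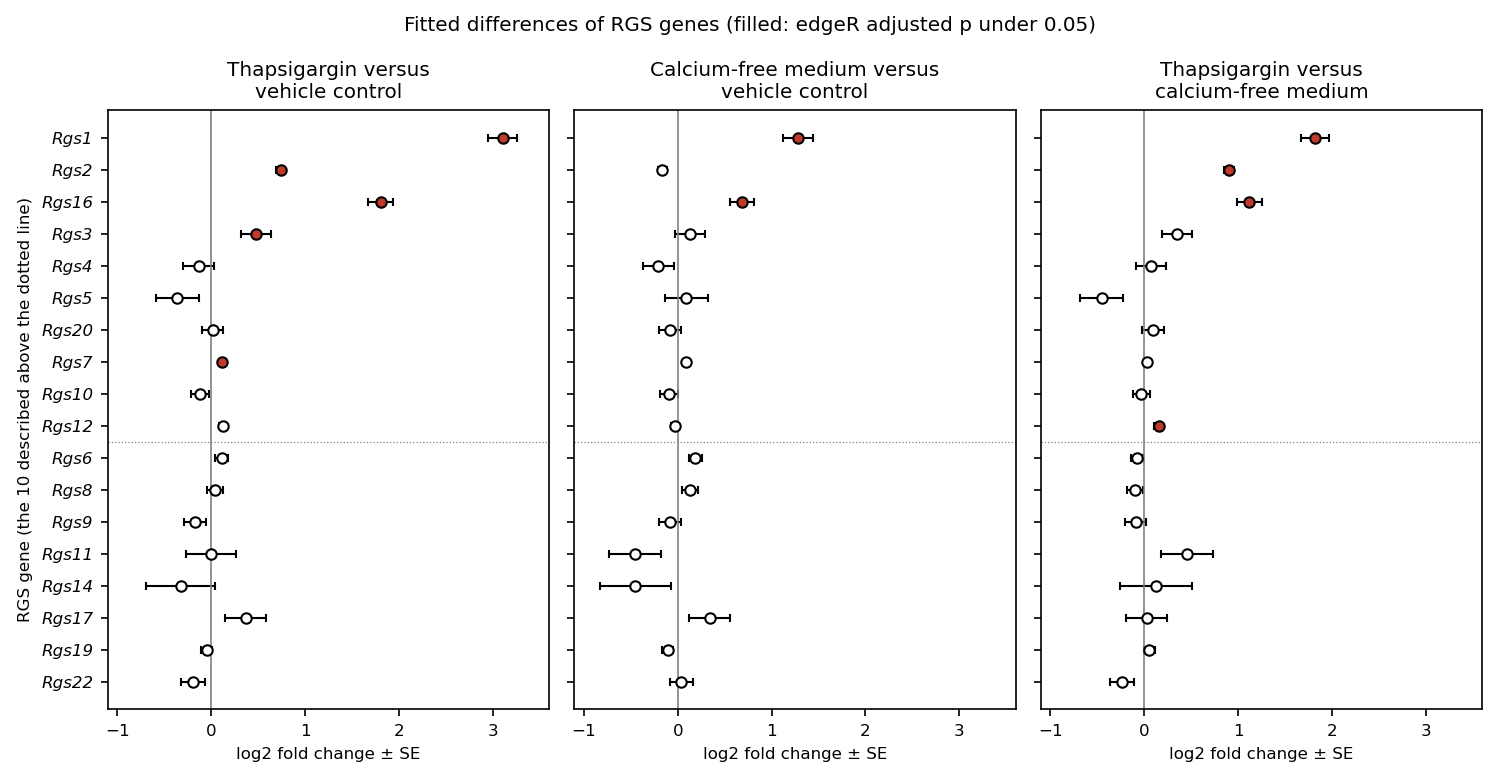
Fitted log2 fold change with its SE (horizontal axis) of the 18 RGS genes that were tested, in the 3 comparisons, the 10 described genes above the dotted line. Filled points passed an adjusted p under 0.05, which Rgs1 and Rgs16 did in all 3 panels and none of the 8 further RGS genes did in any. By comparison and direction, 1.55% to 16.4% of all tested genes passed.

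Levels of different genes were set side by side as CPM per kilobase of summed exon length. That length pools all isoforms, so it understates the level of genes with long or many isoforms such as Rgs3 and Rgs12. In vehicle controls Rgs7 came first at 27.9 ± 0.388 CPM per kb and Rgs16 next at 23.8 ± 3.20 (SD, n = 4), without overlap of libraries. Rgs2 at 7.11 ± 0.291 and Rgs4 at 6.81 ± 1.16 overlapped each other, and Rgs12, Rgs20, Rgs10 and Rgs3 lay between 4.34 and 3.07, each overlapping the next. Rgs5 at 1.65 ± 0.379 and Rgs1 at 0.807 ± 0.189 closed the order, apart from each other and from the rest. With thapsigargin Rgs16 came first at 83.2 ± 11.1 CPM per kb, above Rgs7 at 30.2 ± 1.04, and Rgs1 stood after Rgs2 at 6.94 ± 0.807, overlapping Rgs4. In calcium-free medium Rgs16 at 38.2 ± 5.69 and Rgs7 at 29.6 ± 0.693 overlapped, and Rgs1 at 1.96 ± 0.184 overlapped Rgs5.

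The summed level of the 22 RGS genes was 178 ± 11.7 CPM per kb with thapsigargin, 121 ± 8.48 in calcium-free medium and 105 ± 5.72 in vehicle controls. Rgs16 made up 46.5 ± 3.25% of it with thapsigargin, 31.4 ± 2.71% in calcium-free medium and 22.6 ± 1.93% in controls (SD, n = 4 each). The share of Rgs7 was 17.0 ± 1.72%, 24.5 ± 1.74% and 26.6 ± 1.67% in the same order. Without Rgs16, the other 9 described genes summed to 72.7 ± 1.09 CPM per kb with thapsigargin, 60.2 ± 1.53 in calcium-free medium and 59.1 ± 1.69 in controls.

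**Figure D4:**
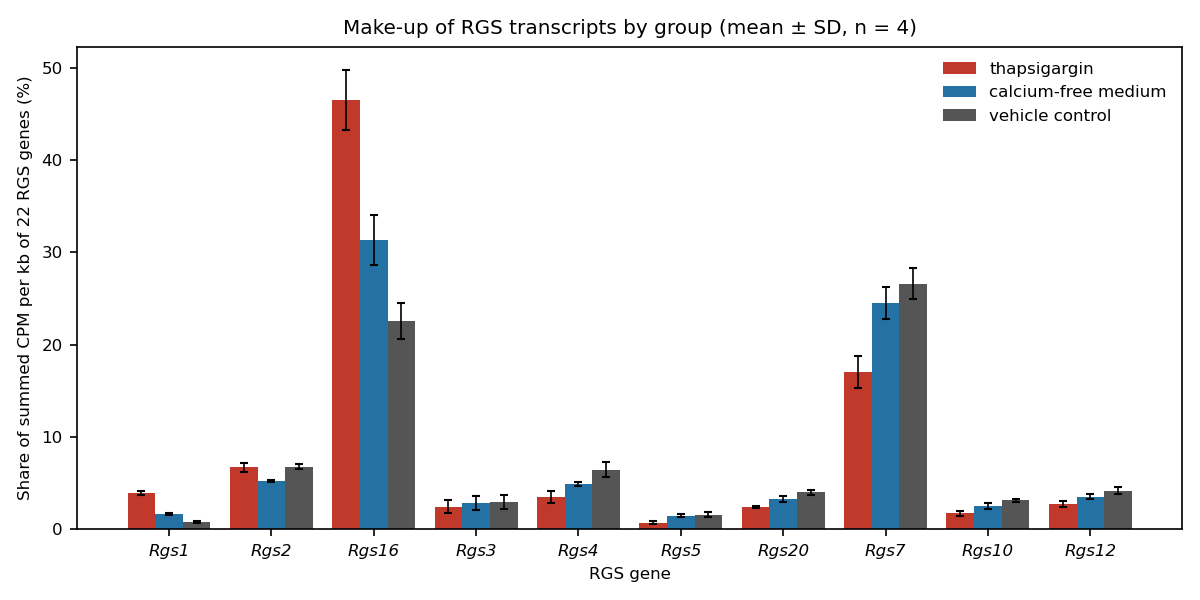
Share of the summed CPM per kb of all 22 RGS genes (vertical axis, in percent, from 0) taken by each described gene, as mean ± SD of 4 libraries, with thapsigargin in red, calcium-free medium in blue and vehicle control in grey. Rgs16 takes 46.5%, 31.4% and 22.6% in that order of groups, and Rgs7 17.0%, 24.5% and 26.6%.

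Of the 12 further RGS genes, Rgs13, Rgs18, Rgs21 and Rgsl1 averaged 0.103 CPM or less in every group and were not tested. The 8 tested ones were Rgs6, Rgs8, Rgs9, Rgs11, Rgs14, Rgs17, Rgs19 and Rgs22, and 0 were called in either direction in any of the 3 comparisons by the edgeR test. Of all tested genes, 16.4% were called higher and 14.8% lower with thapsigargin, and 3.78% and 1.55% in calcium-free medium. Between the 2 treatments the shares were 14.6% and 13.2%. At an unadjusted p under 0.05 there was 1 among these 8, Rgs6 in calcium-free medium (0.19 ± 0.07). With the block, thapsigargin gave 1 higher, Rgs17 (0.37, edgeR adjusted p = 0.00314), and 1 lower, Rgs9 (-0.17, edgeR adjusted p = 0.00954), where 23.0% and 28.2% of all genes were. Calcium-free medium gave 2 higher with the block, Rgs6 (edgeR adjusted p = 0.00914) and Rgs17 (0.0195), where 10.4% of all genes were.

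Chromosome 1 carries 7 of the 10 described genes and 12 of the 22 RGS genes, and 5.99% of all tested genes. On GRCm39, Rgs2 spans chr1:143875076-143879887 and Rgs1 chr1:144120407-144124862, both on the minus strand, with Rgs13 between them. Rgs16 spans chr1:153616099-153621212 on the plus strand. Its RGS neighbours are Rgsl1 at a distance of 32.5 kb, which was not tested, and on the other side Rgs8 at 42.7 kb. Rgs8 was at 68.7 ± 4.46 CPM with thapsigargin, 73.4 ± 8.88 CPM in calcium-free medium and 67.0 ± 5.32 CPM in vehicle controls, with overlapping groups and a log2 fold change of 0.04 ± 0.09 with thapsigargin. Rgs5 and Rgs4 lie 45.7 kb apart on opposite strands. Of the 16 nearest tested protein-coding neighbours that are not themselves described genes, 1 was called higher with thapsigargin, Tial1 beside Rgs10, and 2 lower, Nuf2 beside Rgs5 and Fh1 beside Rgs7, where 16.4% and 14.8% of all genes were. Nuf2 lost its call in 9 and Tial1 in 5 of 12 fits that left out 1 library. The replicate block called 2 higher with thapsigargin and 4 lower, where 23.0% and 28.2% of all genes were. Zfp618 beside Rgs3 (edgeR adjusted p = 0.0208) joined the first, and Brinp3 beside Rgs1 (0.00505) and Atp6v1h beside Rgs20 (0.0112) the second. In calcium-free medium 0 of the 16 were called by the edgeR test, and 0 had an unadjusted p under 0.05. Of all genes 3.78% were called higher there and 1.55% lower. Among the described genes, 4 overlap another gene of the table, Rgs3, Rgs7, Rgs12 and Rgs20. The overlapping genes held at most 22 counts in a library, 0.323% or less of the counts of the gene they overlap.

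The genes whose levels ran most like those of Rgs1 and Rgs16 were looked up among 11581 genes, by Pearson's r of log2 CPM over the 12 libraries. The points share the 3 groups and the stand of replicate 4, so r describes a shared pattern over groups. For Rgs1 the closest were Mcl1 (r = 0.989), Ahdc1 (0.985) and Prickle2 (0.984), and for Rgs16 Klf6 (0.991), Mcl1 (0.990) and Fgd4 (0.990). Mcl1, a survival factor of the BCL2 family, was at 295 CPM with thapsigargin, 214 CPM in calcium-free medium and 164 CPM in vehicle controls, a log2 fold change of 0.84 ± 0.05 with thapsigargin. Klf6, a zinc finger transcription factor, was at 199, 96.7 and 70.4 CPM in the same order, a log2 fold change of 1.50 ± 0.10 with thapsigargin.

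G protein alpha subunit genes had log2 fold changes from -0.20 to 0.44 with thapsigargin. The highest was that of Gna15, not called, at 0.816 CPM with thapsigargin and 0.605 CPM in vehicle controls. Genes of the beta and gamma subunits, the partners of the alpha subunits, had log2 fold changes from -0.58 to 0.11. The lowest was that of Gng4, not called, at 0.207 CPM with thapsigargin and 0.314 CPM in vehicle controls. Of 13 tested alpha subunit genes, 1 was called higher with thapsigargin, Gna13 (0.21 ± 0.03), and 4 lower, Gnai2, Gna11, Gna12 and Gnas, with log2 fold changes from -0.20 to -0.15, where 16.4% of all tested genes were called higher and 14.8% lower. Of 13 beta and gamma subunit genes, 0 were called higher, also at an unadjusted p under 0.05, and 7 lower, the largest decrease among them being Gng7 at -0.34 ± 0.06. In calcium-free medium, where 3.78% of all genes were called higher and 1.55% lower, 1 alpha subunit, Gnai3, was called higher (0.17 ± 0.04). Of the beta and gamma subunits 0 were called there in either direction, also at an unadjusted p under 0.05. The median log2 fold change with thapsigargin was -0.06 for the alpha subunits and -0.16 for the beta and gamma subunits, beside -0.05 for all genes. Of 7 receptor kinases and arrestins, which switch receptors off before the G protein step, Grk4 was called higher (0.25 ± 0.08) and Grk2 lower (-0.12 ± 0.04) with thapsigargin, and 0 in calcium-free medium, also at an unadjusted p under 0.05. The replicate block called 3 lower with thapsigargin, Grk2, Grk5 and Grk6, where 28.2% of all genes were, and 1 in calcium-free medium, Grk6, where 7.01% were. Leaving out 1 library lost the call of Gnas, Gnai3 or Grk4 in 5 of 12 fits each, of Gnb2 in 4, of Gnb1 in 3, of Gng10 in 2, and of Grk2 in 1, without thapsigargin replicate 1. These symbols were named after their values were seen.

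Among 10 tested further regulators, 6 were called higher with thapsigargin and 0 lower (1 lower at an unadjusted p under 0.05), where 16.4% and 14.8% of all genes were, and their median log2 fold change was 0.31, beside -0.05 for all genes. This list too was chosen with results of these data known. Ric8b, a chaperone of Gs-class alpha subunits, was at 39.7 ± 1.08 CPM with thapsigargin, 30.6 ± 2.25 CPM in calcium-free medium and 24.5 ± 0.633 CPM in vehicle controls, and rose in both comparisons (0.70 ± 0.05 and 0.32 ± 0.05, edgeR adjusted p = 2.05e-06 and 0.00538). Axin1, a scaffold of beta-catenin degradation that carries an RGS homology domain, rose by 0.63 ± 0.06 and 0.39 ± 0.06. Its paralogue Axin2 rose by 0.67 ± 0.10 with thapsigargin. Akap10, Gpsm1 and Gpsm2 made up the rest of the 6, with log2 fold changes of 0.25 to 0.49, and Gpsm2 lost its call in 4 of 12 fits that left out 1 library. In calcium-free medium 3 of the 10 were called higher, Axin1, Ric8b and Akap10, where 3.78% of all genes were. Called lower there were 0, where 1.55% of all genes were, with 0 lower at an unadjusted p under 0.05. With the replicate block 6 of the 10 were called higher in calcium-free medium, the others being Axin2, Gpsm2 and Snx13, where 10.4% of all genes were. With thapsigargin the block called 6 higher and 2 lower, Snx13 and Snx14, where 23.0% and 28.2% of all genes were.

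The partners of R7 proteins were 5 tested genes. With thapsigargin 0 were called by the edgeR test, with 0 at an unadjusted p under 0.05, where 16.4% of all genes were called higher and 14.8% lower. The block called 1 lower, Rgs9bp, where 28.2% of all genes were. Gnb5, the partner that Rgs7 needs, was at 42.9 CPM with thapsigargin, 46.0 CPM in calcium-free medium and 45.3 CPM in vehicle controls, and was not called against control. Rgs9bp, the membrane anchor of Rgs9 in the retina, was at 1.33 ± 0.664 CPM in calcium-free medium and 3.97 ± 1.63 CPM in controls, a log2 fold change of -1.57 ± 0.39 (edgeR adjusted p = 0.0389). That call was lost in 9 of 12 fits that left out 1 library (edgeR adjusted p up to 0.111), and held without thapsigargin replicate 1 or 4 or calcium-free replicate 4. It held with the replicate block (edgeR adjusted p = 4.82e-06), without replicate 4 of all groups (0.000384) and by DESeq2 (adjusted p = 0.00146).

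Of 16 effector genes, Plcb4 (0.39 ± 0.05) and Adcy9 (0.26 ± 0.09) were called higher with thapsigargin, and Adcy3 (-0.50 ± 0.07), Adcy1 (-0.36 ± 0.07) and Plcb3 (-0.20 ± 0.05) lower, where 16.4% of all genes were called higher and 14.8% lower. Plcb3 and Plcb4 encode phospholipase C beta, the effector of Gq, and Adcy1, Adcy3 and Adcy9 adenylyl cyclases. In calcium-free medium Adcy9 (0.43 ± 0.09) and Itpr1 (0.37 ± 0.09), an inositol trisphosphate receptor, were called higher, where 3.78% of all genes were. Called lower there were 0, where 1.55% of all genes were, with 0 lower at an unadjusted p under 0.05. Under the block 4 were called higher there, Plcb1 and Adcy1 being added, where 10.4% of all genes were. Leaving out 1 library lost the call of Itpr1 in 9 of 12 fits, of Adcy9 in 3 in calcium-free medium and 5 with thapsigargin, and of Plcb3 in 2, without thapsigargin replicate 2 or 3. Adcy1, a cyclase stimulated by calcium and calmodulin, was at 83.8 ± 6.53 CPM with thapsigargin, 122 ± 11.6 CPM in calcium-free medium and 107 ± 5.05 CPM in vehicle controls, and was lower with thapsigargin than in calcium-free medium by a log2 difference of -0.54 ± 0.07 (edgeR adjusted p = 0.000206).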

How the data were processed

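Per the labels' protocols, poly-A RNA was captured from 500 ng of total RNA and stranded libraries were amplified for 14 PCR cycles. The submitters' processing notes name GRCm39, STAR 2.7.2b, featureCounts 1.6.4 of Subread, cutadapt 1.17 and bcl2fastq 2.20.0.422, and no source used here gives the strand setting. These notes give no role or order of the tools. As deposited by the authors, the table holds unnormalised estimated counts per gene for 12 libraries; 14.2% to 15.9% of a library's values were not whole, and they were rounded. Library totals ran from 36.2 to 42.6 M, and precision is that of read counts without molecular identifiers.

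The edgeR 4.0.16 quasi-likelihood test (R 4.3.3; TMM, filterByExpr with groups and minimum count 10, robust, 1 mean per group, all 12 libraries) was fitted to the whole table. In each comparison the Benjamini-Hochberg adjustment ran over 17077 genes, and a call needs an adjusted p under 0.05. The SE of a log2 fold change was derived from the test statistic, and CPM uses TMM-normalised library sizes. The test was checked on simulated data that held no difference between replicate numbers, so the check does not cover such a difference. The RGS genes and all gene lists were chosen with earlier results of these data known. Named were all 10 genes, their nearest tested protein-coding neighbours, list genes called with a log2 fold change of at least 0.5 in size, and the 3 genes most like each RGS gene changed by 1 or more on the log2 scale (mean log2 CPM of at least 2); others were named after their values were seen.

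The groups share replicate numbers 1 to 4. Deviations from group means correlated across genes between same-numbered libraries with r from 0.814 to 0.836 for replicate 4 and from 0.159 to 0.392 for replicates 1 to 3, all above 0.1, so the numbers were taken as pairing the libraries. Different numbers among 1 to 3 gave 0.238 to 0.412, so the pairing rests on replicate 4. The replicate block was an alternative, beside DESeq2 1.42.0, other scaling factors, no filter, unrounded values, fits of only the groups compared, and libraries left out. No replicate pair agreed within sampling noise (chi-square per degree of freedom of 1.66 or more).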

Additional observations from a re-analysis of the deposited data

Results flagged for a closer look

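In 30 sets of 4 libraries (10 genes in 3 groups), 8 held a library far from the other 3 by Dixon's test at the 95% level, a test that chance passes in about 1 of 20 sets. In 7 of these 8 the library was replicate 4. Rgs3 was high there in each group, at 66.0 CPM with thapsigargin (others 43.2 to 46.9), 50.4 CPM in calcium-free medium (35.2 to 36.8) and 46.1 CPM in vehicle controls (32.3 to 33.7). Rgs16 was low at 44.3 CPM in vehicle controls (58.6 to 59.8), Rgs4 low at 14.9 CPM in vehicle controls (21.3 to 22.2) and Rgs20 low at 22.5 CPM in calcium-free medium (31.1 to 32.5). Rgs7 was high at 102.9 CPM with thapsigargin (95.7 to 96.7). The library that was not replicate 4 was vehicle control replicate 2, with Rgs10 at 7.28 CPM (6.34 to 6.46).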

How the results depend on the processing

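Of 600 values of single RGS genes under the alternatives, 547 kept their direction and their side of the threshold, 15 lost a call, 23 gained one, 15 changed sign without a call, and 0 called values changed sign. The calls of Rgs1 and Rgs16 in all 3 comparisons and of Rgs2 in both that involve thapsigargin held in all 20 alternatives. With the replicate block, which uses the pairing by number, 1 gene was lower with thapsigargin than in controls (Rgs5), 4 were higher in calcium-free medium (Rgs1, Rgs16, Rgs3, Rgs7) and 1 lower (Rgs2), and 1 was lower with thapsigargin than in calcium-free medium (Rgs5). With replicate 4 of all 3 groups left out the same 4 counts were 1, 4, 1 and 1, the gene lower in calcium-free medium being Rgs4, and the shares of all genes called in that fit were 21.2%, 10.5%, 5.16% and 19.4%. The block changed no other count of RGS calls by over 1.5 times. Leaving out 1 library gave 3 to 6 genes higher with thapsigargin than in controls, the lowest without thapsigargin replicate 4 or control replicate 1. Without the filter on low counts Rgs3 lost its call with thapsigargin (edgeR adjusted p = 0.0805). The causes were not tested. Depth limits Rgs1 in controls, at 32 to 55 counts a library.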
